A study of Mus musculus with 16 samples.

Results

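Amino acid transporters are described here as the 59 genes of the deposited expression table whose symbols belong to the solute carrier families Slc1, Slc3, Slc6, Slc7, Slc36, Slc38 and Slc43, out of 31274 rows in all. The members were chosen by symbol. RNA-seq was carried out on the whole uterus of ovariectomized mice, 2 weeks after the ovaries were removed and 6 h after oil or progesterone (P4). The strains were PgrcrePgrALsL/+, called PRA, which carries a Cre-activated allele for progesterone receptor isoform A, and PgrcrePgrBLsL/+, called PRB, which carries the corresponding allele for isoform B. In both strains Cre is driven from the progesterone receptor gene, so PRA and PRB share that driver, and no strain without an activated receptor was included. The 4 groups were PRA with oil, PRA with P4, PRB with oil and PRB with P4, with 4 libraries that the labels call biological replicates in each. The labels' growth protocol mentions mice kept until 8 weeks of age. Another protocol in the labels describes mated females instead, and the groups here follow the titles and the design text.

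Values are FPKM, that is fragments scaled by transcript length and library size, so levels can be compared between genes. Fold changes and tests are on the log2(FPKM + 1) scale, on which the change of a low gene comes out smaller. A gene was tested where its mean over the 16 libraries was at least 1 FPKM, and was called where limma's p, adjusted over all 15408 features tested by the Benjamini-Hochberg method, was under 0.05. No read counts came with the table, but the spacing of low values shows its depth: 1 FPKM of a 2 kb transcript stood for about 106 fragments in the shallowest library and 127 in the deepest. Library positions in the labels followed strain and treatment, so position cannot be told apart from the groups. Pgr, the gene that both strains modify, had 64.9 ± 5.52 FPKM in PRA with oil, 73.9 ± 1.80 in PRA with P4, 83.5 ± 4.49 in PRB with oil and 112 ± 22.3 in PRB with P4 (mean ± SD, n = 4 for every group value here). A gene-level value separates neither the isoforms nor the introduced allele from the native gene. Uterine cell markers were present: none of the 12 epithelial, 9 stromal or 7 smooth muscle markers was at 0 in every library. In PRA with oil, the summed level of 4 adipose markers was 551 and 479 FPKM in replicates 1 and 3 but 153 and 60.04 in replicates 2 and 4. PRB P4 replicate 3 had the highest summed epithelial markers, 1790 FPKM, and stood away from its group for several carriers below. Its summed gland markers were 81.2 FPKM, against 9.42 to 30.7 in the rest of its group. The part of these markers in its carrier values was not tested. In whole tissue, fewer cells of a type and less RNA per cell cannot be told apart.

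Cells take up amino acids through carriers that couple transport to sodium or protons, or that exchange 1 amino acid for another. The Slc7 light chains need a heavy chain, Slc3a2 (CD98) or Slc3a1 (rBAT), to reach the cell surface, whereas Slc38a9 and Slc36a1 sit on lysosomes and take part in amino acid sensing by mTORC1. When amino acids run short or protein folding is disturbed, the kinases that phosphorylate eIF2 raise translation of ATF4, a transcription factor that induces several of these carriers. Before implantation the amino acid content of uterine fluid changes under ovarian hormones, and progesterone acts on both the epithelium and the stroma of the uterus. The symbol rule also takes in carriers with other cargo, among them Slc6a2 for noradrenaline, Slc6a6 for taurine, Slc6a8 for creatine and Slc43a3 for purine bases.

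Because several carriers are known ATF4 targets, promoters were searched on both strands for the letters of an amino acid response element, TGATGNAA. RefSeq (GRCm38.p6) gave windows of 300 bases, from 250 before to 50 after the annotated start, for 41 of the 59 carriers. The letters occurred in 3 of these 41, Slc7a11, Slc1a4 and Slc7a7, against 4.51% of all 27025 genes with a window and 3.97% of all 32851 windows. Of the 21 genes of an amino acid response list, 19 had a window and 6 held the letters. The stretches below end at or just past the start site and show the matches in capitals, since Slc1a4 rose with P4 in both strains while Slc7a11 and Slc7a7 fell. For Slc36a1, a lysosomal carrier that fell, the capitals mark TCACGTGA, a longer form of the E-box CACGTG that lysosomal genes often carry. It was present in 0.974% of windows and in 1 carrier, and it contains the shorter E-box. All are written 5′ to 3′ along the gene's own strand: Slc7a11 is at chr3:50443614-50443763 on the minus strand, Slc1a4 at chr11:20332710-20332863 on the minus strand, Slc7a7 at chr14:54417938-54418094 on the minus strand and Slc36a1 at chr11:55204190-55204343 on the plus strand.
Slc7a11: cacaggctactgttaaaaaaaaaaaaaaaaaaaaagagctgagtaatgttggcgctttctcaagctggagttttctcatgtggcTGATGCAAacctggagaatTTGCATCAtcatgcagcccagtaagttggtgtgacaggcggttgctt
Slc1a4: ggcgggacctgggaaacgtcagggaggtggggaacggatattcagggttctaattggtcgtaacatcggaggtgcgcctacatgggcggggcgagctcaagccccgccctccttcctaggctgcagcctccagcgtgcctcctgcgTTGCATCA
Slc7a7: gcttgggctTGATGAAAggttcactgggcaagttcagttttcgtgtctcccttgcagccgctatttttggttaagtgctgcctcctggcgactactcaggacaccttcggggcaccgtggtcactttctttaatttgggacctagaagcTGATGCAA
Slc36a1: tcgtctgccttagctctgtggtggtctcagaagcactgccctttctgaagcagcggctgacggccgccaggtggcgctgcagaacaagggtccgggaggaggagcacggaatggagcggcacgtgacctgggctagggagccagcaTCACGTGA
In Slc7a11 the matches lay at -66 to -59 and -47 to -40 from the start, on opposite strands. The match in Slc1a4 spanned -4 to 4, and those in Slc7a7 lay at -141 to -134 and across -1 to 7. A palindromic progesterone response element was found in 0.475% of windows and in 1 carrier, Slc38a11, which was too low to test. These motifs were chosen after the expression values were seen, and a match describes letters only.

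Of the 59 carriers, 35 reached the mean of 1 FPKM and were tested. Among the other 24, the highest mean was 0.707 FPKM, for Slc1a6, and the highest single library had 1.11 FPKM. Slc7a12 was listed at 0 in every library, and 11 of the 59 had a mean under 0.1 FPKM. The untested carriers included the heavy chain Slc3a1 and its light chain Slc7a9, which work together in kidney and gut, at means of 0.615 and 0.147 FPKM. They also included the gut and kidney carriers Slc6a18 and Slc6a19. At the other end, 22 carriers had a mean of at least 10 FPKM and 5 of at least 50 FPKM. The 6 highest were Slc3a2, Slc1a5, Slc6a6, Slc38a2, Slc38a10 and Slc6a8.

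Progesterone moved carriers in both directions. In PRA, 11 of the 35 tested carriers rose and 17 fell, where 69.8% of all tested features were called, 36.6% higher and 33.2% lower. In PRB, 9 rose and 16 fell, where 69.1% of features were called, 36.2% higher and 32.9% lower. By at least 1 on the log2 scale, 4 rose and 6 fell in PRA, where 14.2% of features changed that far, and 4 rose and 7 fell in PRB, against 13.7%. The median log2 change of the tested carriers was -0.34 in PRA and -0.18 in PRB, against 0.01 and 0.00 over all tested features. For comparison, 176 tested carriers of other Slc families had 78 calls higher and 58 lower in PRA, and 81 and 53 in PRB, with medians of 0.15 and 0.13. The P4 and oil libraries did not overlap for 24 carriers in PRA, against 66.2% of features, and for 20 in PRB, against 61.0%. No carrier was called in opposite directions in the strains, 9 rose in both and 16 fell in both. The share of all features called alike in both strains was not counted, so this agreement is not shown to be particular to carriers. Slc3a2 and Slc7a3 rose and Slc38a4 fell in PRA without a call in PRB, and 7 carriers were called in neither strain.

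**Figure D1:**
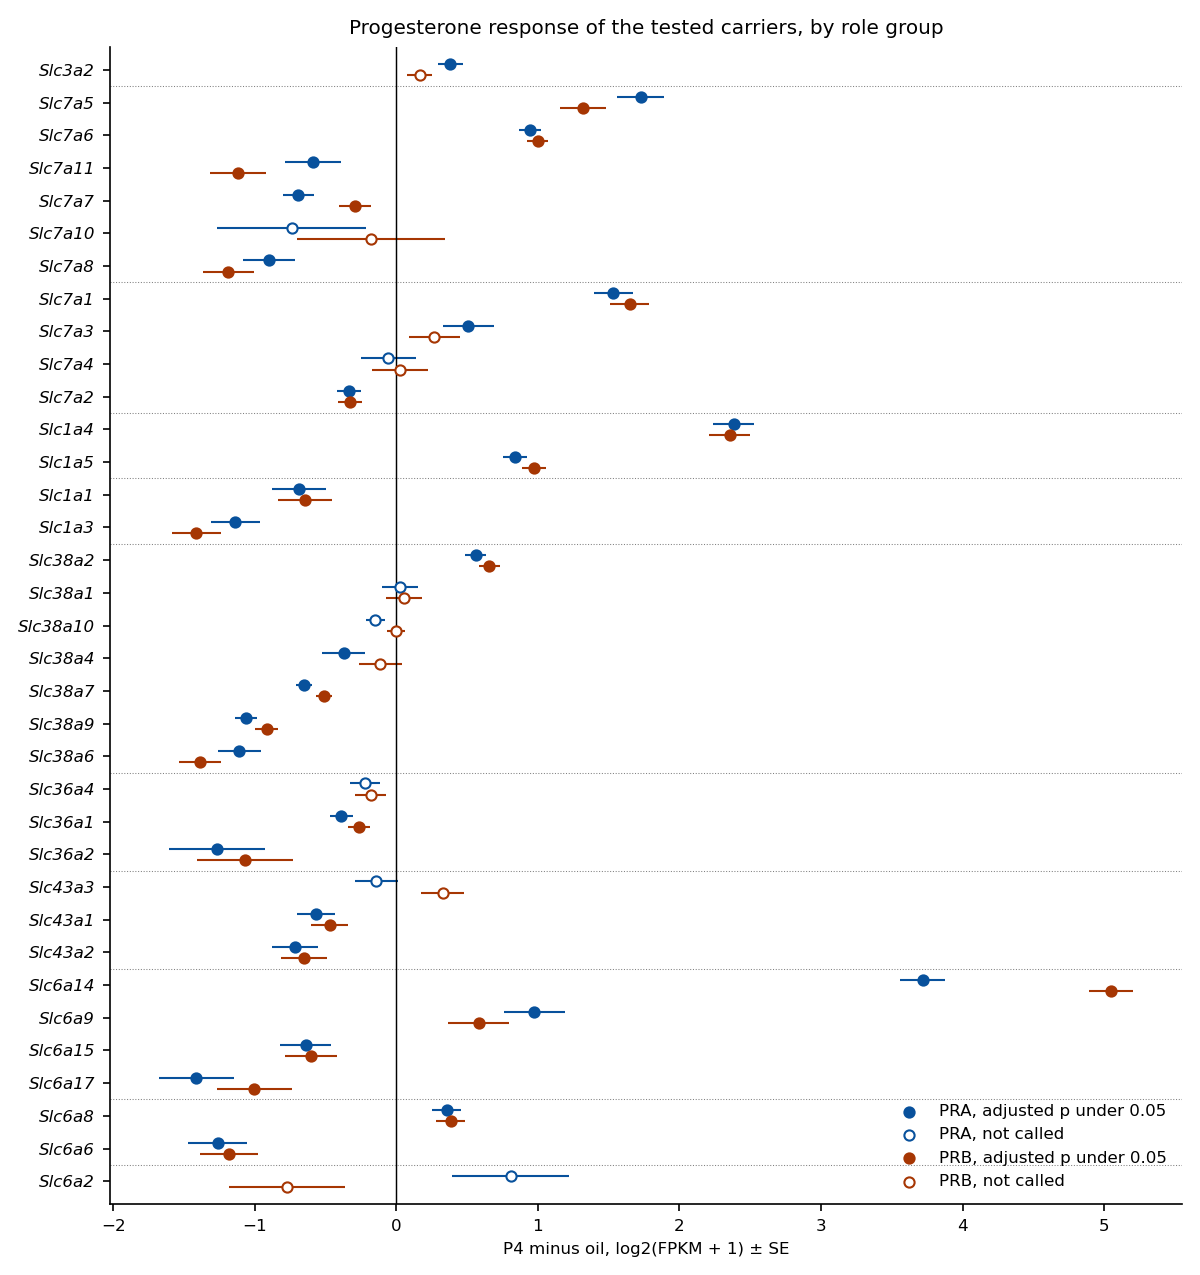
Change of each tested carrier after P4, as the difference of mean log2(FPKM + 1) from oil with its standard error, in PRA and PRB, ordered by role, with filled points for calls. Slc6a14 reaches 3.72 in PRA and 5.05 in PRB, and the carriers that fell lie between 0 and -1.41.

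Slc6a14, a sodium- and chloride-coupled carrier of neutral and cationic amino acids found in epithelia, had the highest change of any carrier. The gene lies on chrX:21714896-21742355, plus strand. With oil it had 1.26, 1.21, 1.43 and 1.21 FPKM in the PRA libraries and 1.14, 1.06, 1.39 and 1.05 in the PRB libraries. With P4 it had 31.5, 33.0, 24.9 and 27.2 FPKM in PRA and 70.3, 63.6, 105 and 51.9 in PRB. Every P4 library was far above every oil library, and every PRB P4 library was above every PRA P4 library. The ratio of mean FPKM was 22.8 in PRA and 62.7 in PRB. On the log2 scale the rise was 3.72 (SE 0.16, limma adjusted p = 2.07e-10) in PRA and 5.05 (SE 0.16, adjusted p = 1.09e-11) in PRB. With a pseudocount of 0.1 in place of 1 these became 4.40 and 5.81.

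The rise of Slc6a14 was larger in PRB than in PRA, by the test of the difference between the responses. PRB exceeded PRA by 1.25 (SE 0.16, limma adjusted p = 0.000203) with P4, and the difference with oil was -0.08 with an adjusted p of 1.00. The responses differed by 1.33 (SE 0.22, adjusted p = 0.00771), in a comparison where 2.28% of all features were called, 1.47% higher and 0.811% lower. Leaving out PRB P4 replicate 3, the library at 105 FPKM, gave 1.14 (adjusted p = 0.00113). Leaving out PRA oil replicates 1 and 3, those with high adipose markers, gave 1.29 with an adjusted p of 0.0602, which is no longer a call. Summed epithelial markers were 1132 to 1435 FPKM in PRA with P4 and 1425 to 1790 in PRB with P4, against 964 to 1092 and 999 to 1061 with oil. Of these 12 markers, 5 rose and 4 fell in PRA, or 41.7% and 33.3% beside 36.6% and 33.2% of all features. In PRB 5 rose and 2 fell, or 41.7% and 16.7% beside 36.2% and 32.9%. With P4, 1 was higher in PRB than PRA, or 8.33% beside 7.75%. The part of these markers in the Slc6a14 difference was not tested.

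**Figure D2:**
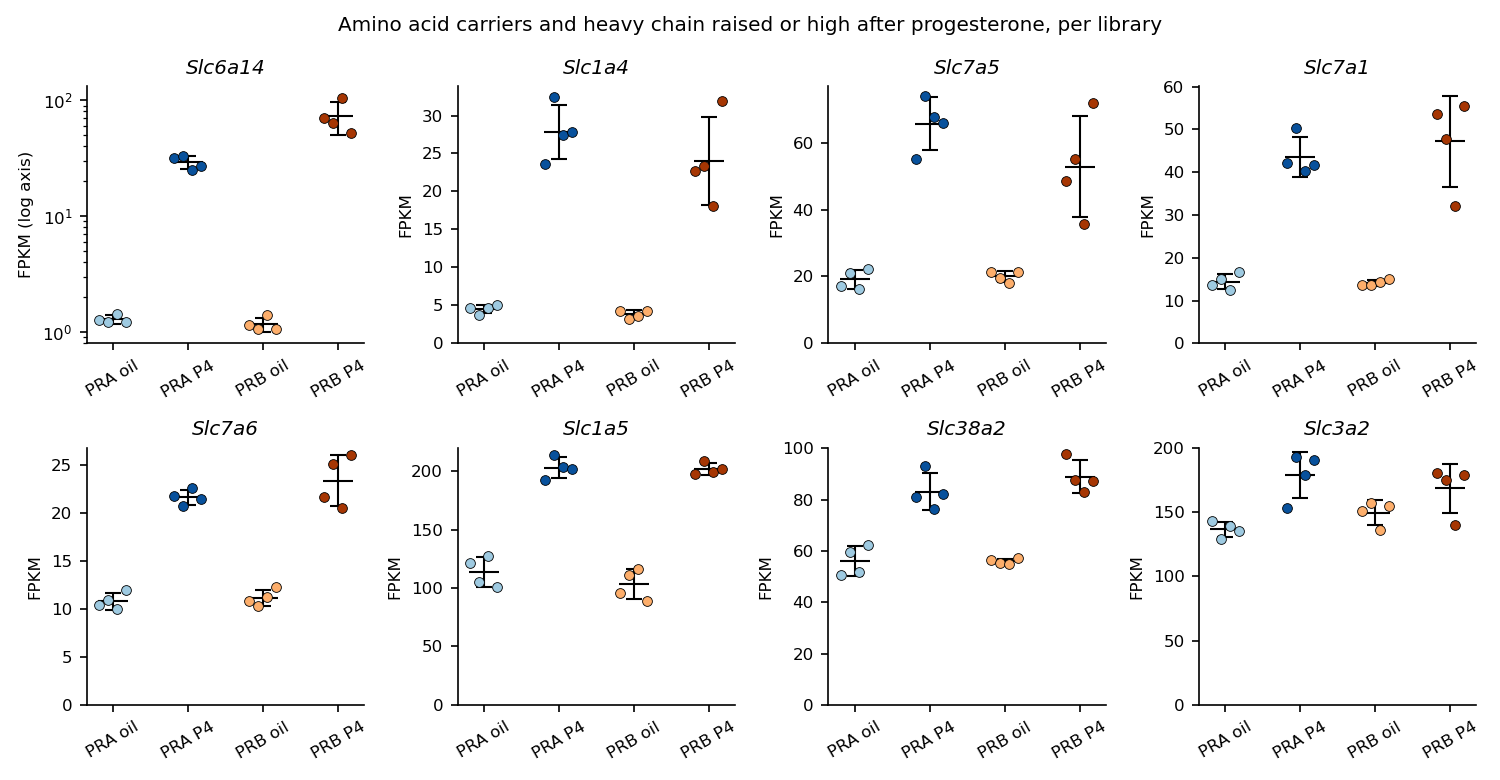
FPKM of 7 carriers that rose with P4 and of the heavy chain Slc3a2 in each library, with group means and SD (n = 4) and a log axis for Slc6a14. For Slc6a14 the PRB P4 libraries (51.9 to 105 FPKM) lie above the PRA P4 libraries (24.9 to 33.0 FPKM).

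Among the light chains that pair with a heavy chain, Slc7a5 and Slc7a6 rose and Slc7a7, Slc7a8 and Slc7a11 fell in both strains. Slc7a5 (LAT1), which exchanges large neutral amino acids such as leucine, lies on chr8:121881150-121907694, minus strand. It had 17.3, 21.0, 16.3 and 22.2 FPKM in PRA with oil and 55.0, 74.1, 67.5 and 66.0 with P4. In PRB it had 21.2, 19.5, 18 and 21.3 FPKM with oil and 48.6, 55.0, 35.8 and 72.0 with P4. All P4 libraries were above all oil libraries, with the lowest P4 value in PRB P4 replicate 3. The log2 rise was 1.73 (SE 0.17, limma adjusted p = 3.16e-07) in PRA and 1.32 (SE 0.17, adjusted p = 5.13e-06) in PRB. The responses differed by -0.41 (SE 0.23, adjusted p = 0.415), which does not show that they are alike. Slc7a6 (y+LAT2), which exchanges cationic for neutral amino acids, had 10.4, 10.9, 9.95 and 11.95 FPKM in PRA with oil and 21.7, 20.8, 22.6 and 21.4 with P4. PRB libraries of Slc7a6 had 10.9, 10.3, 11.2 and 12.2 FPKM with oil and 21.7, 25.1, 20.5 and 26.0 with P4. Its log2 rise was 0.94 in PRA and 1.00 in PRB (limma adjusted p = 5.35e-08 and 3.05e-08), with no overlap between oil and P4.

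Slc7a8 (LAT2), which carries a broad range of neutral amino acids, fell. It had 53.5, 33.0, 31.5 and 28.6 FPKM in PRA with oil and 15.2, 16.3, 19.999 and 24.1 with P4. Its PRB libraries had 46.8, 47.5, 41.5 and 48.6 FPKM with oil and 23.5, 18.7, 15.8 and 21.3 with P4. Oil and P4 libraries did not overlap in either strain, and PRA oil replicate 1 was the highest of all. The log2 change was -0.90 (SE 0.18, limma adjusted p = 0.000426) in PRA and -1.19 (SE 0.18, adjusted p = 3.44e-05) in PRB. Slc7a7 (y+LAT1), a close relative of Slc7a6, had 11.8, 10.9, 11 and 9.93 FPKM in PRA with oil and 7.53, 5.92, 5.71 and 6.39 with P4. PRB libraries of Slc7a7 had 11.8, 10.8, 12.1 and 9.41 FPKM with oil and 8.45, 8.10, 11.4 and 7.65 with P4. In PRB the groups overlapped through P4 replicate 3. The log2 change was -0.69 (SE 0.11, limma adjusted p = 5.97e-05) in PRA and -0.29 (SE 0.11, adjusted p = 0.0314) in PRB. The PRB call was lost when any of PRB oil replicates 1, 2 and 3 or PRB P4 replicates 1, 2 and 4 was left out, at -0.30 to -0.23. Its exons share 232 bases with Oxa1l on the opposite strand, at a mean of 35.9 FPKM, and whether the authors' counting used strand is not given in the sources used here.

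Slc7a11 (xCT) exchanges cystine for glutamate and supplies cysteine for glutathione. Its promoter stretch is the one above with paired matches on opposite strands. It had 14.6, 22.2, 18 and 27.0 FPKM in PRA with oil and 10.5, 15.7, 11.3 and 15 with P4, so the groups overlapped. The PRB values were 20.4, 18.8, 22.3 and 19.5 FPKM with oil and 10.1, 9.59, 5.59 and 10.7 with P4, without overlap. The log2 change was -0.59 (SE 0.20, limma adjusted p = 0.0157) in PRA and -1.12 (SE 0.20, adjusted p = 0.000137) in PRB. The call in PRA was lost without PRA oil replicate 4 (-0.45), without PRA P4 replicate 1 (-0.49) and without PRA oil replicates 2 and 4 together (-0.30). The difference between the responses was -0.53 (SE 0.28, adjusted p = 0.367).

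Slc3a2, the CD98 heavy chain that these light chains share, had the highest mean of all carriers and changed little by comparison. It had 143, 129, 139 and 136 FPKM in PRA with oil and 153, 193, 179 and 191 with P4, without overlap. PRB libraries had 151, 157, 136 and 155 FPKM with oil and 180, 175, 140 and 179 with P4, and P4 replicate 3 alone lay among the oil libraries. The log2 rise was 0.38 (SE 0.09, limma adjusted p = 0.00115) in PRA, and the difference in PRB was 0.16 (SE 0.09, adjusted p = 0.104). Without PRB P4 replicate 3 the difference in PRB was 0.25, a call. Under quantile normalization it was 0.12 in PRA and -0.11 in PRB, neither of them called.

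The make-up of the light chains shifted while their sum moved less. The summed FPKM of Slc7a5, Slc7a6, Slc7a7, Slc7a8, Slc7a10 and Slc7a11 was 104 ± 10.6 in PRA with oil, 128 ± 10.02 in PRA with P4, 112 ± 0.804 in PRB with oil and 117 ± 20.9 in PRB with P4. Per unit of Slc3a2 this sum was 0.764, 0.718, 0.751 and 0.689 in the same order. Slc7a5 made up 18.5% of the sum in PRA with oil and 51.1% with P4, and 17.8% and 44.7% in PRB. Slc7a8 went the other way, from 34.6% to 14.7% in PRA and from 41.1% to 17.2% in PRB. These sums and shares were not tested.

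**Figure D3:**
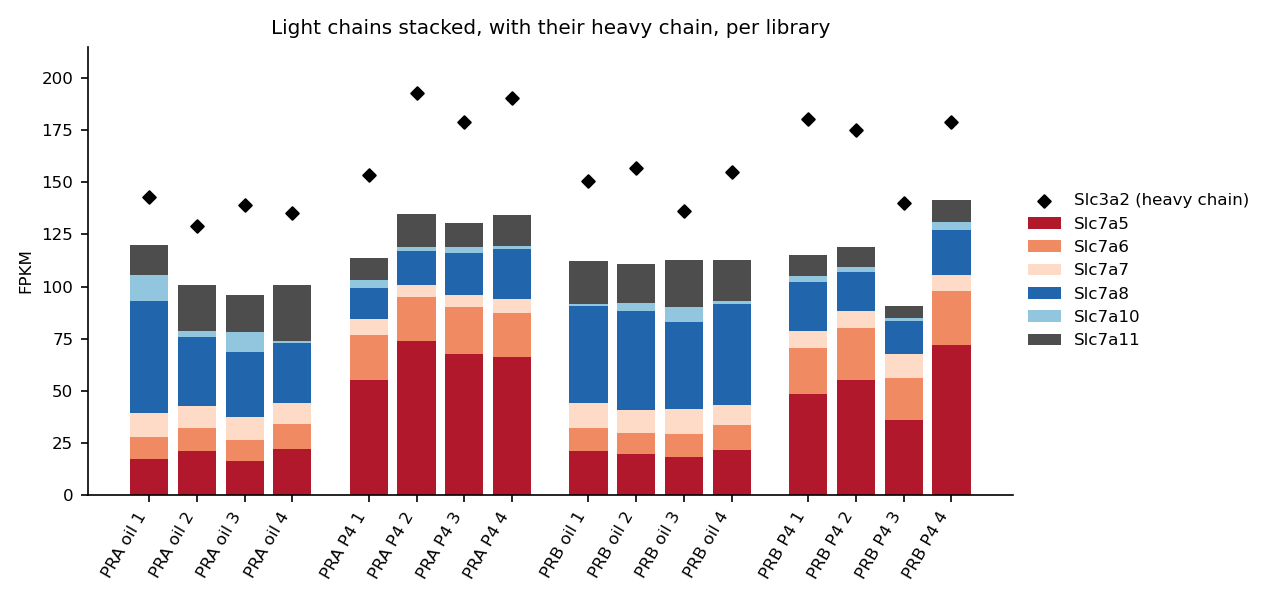
FPKM of the 6 tested light chains stacked for each library, with the heavy chain Slc3a2 as a diamond. In group means, Slc7a5 holds 51.1% of the sum in PRA with P4 against 18.5% with oil, and Slc7a8 holds 14.7% against 34.6%.

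Of the cationic amino acid carriers, Slc7a1 rose and Slc7a2 fell in both strains. Slc7a1 (CAT1), the widespread arginine and lysine carrier, lies on chr5:148327410-148399904, minus strand. It had 13.6, 15, 12.5 and 16.6 FPKM in PRA with oil and 42.2, 50.4, 40.2 and 41.6 with P4. Among PRB libraries it had 13.6, 13.5, 14.3 and 14.9 FPKM with oil and 53.7, 47.7, 32.1 and 55.5 with P4. The oil libraries of the strains overlapped, and all P4 libraries lay well above them. The log2 rise was 1.53 (SE 0.14, limma adjusted p = 1.78e-07) in PRA and 1.65 (SE 0.14, adjusted p = 8.52e-08) in PRB. Slc7a2 (CAT2), a related arginine carrier, changed by -0.34 in PRA and -0.32 in PRB. Under quantile normalization these were -0.17, no longer a call (limma adjusted p = 0.0714), and -0.21. Slc7a3 (CAT3) rose from 1.83 to 3.08 FPKM in PRA (0.51 on the log2 scale, limma adjusted p = 0.0211) and differed by 0.27 in PRB without a call. The PRA call was lost without PRA oil replicate 3 or 4 or PRA P4 replicate 2 or 4, at 0.41 to 0.46. Slc7a4, whose transport activity is uncertain, stayed near 10 FPKM in group mean, with 9.76, 9.41, 9.38 and 10.1, and was not called.

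Both neutral exchangers of the Slc1 family rose. Slc1a4 (ASCT1), which carries alanine, serine and cysteine, had 4.67, 3.76, 4.60 and 5.06 FPKM in PRA with oil and 23.7, 32.4, 27.4 and 27.8 with P4. In PRB it had 4.24, 3.20, 3.54 and 4.29 FPKM with oil and 22.7, 23.4, 18 and 31.9 with P4. The oil and P4 libraries were widely separated in both strains. The log2 rise was 2.38 (SE 0.14, limma adjusted p = 3.34e-09) in PRA and 2.35 (SE 0.14, adjusted p = 3.51e-09) in PRB, which was the second highest among the carriers after Slc6a14. Slc1a5 (ASCT2), the glutamine exchanger, was already abundant with oil, at 122, 105, 127 and 101 FPKM in PRA and 96.0, 111, 117 and 89.3 in PRB. With P4 it had 192, 214, 203 and 202 FPKM in PRA and 198, 209, 199 and 202 in PRB. These P4 values were tight and close in the strains, and the log2 rise was 0.84 (SE 0.08, limma adjusted p = 5.85e-07) in PRA and 0.97 (SE 0.08, adjusted p = 1.27e-07) in PRB.

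Both tested glutamate carriers fell. Slc1a3 (GLAST), a glutamate and aspartate carrier, had 13.3, 7.85, 11.7 and 6.82 FPKM in PRA with oil and 4.51, 3.49, 4.10 and 3.26 with P4. Its PRB libraries had 9.29, 13.5, 10.7 and 9.70 FPKM with oil and 3.47, 2.80, 3.82 and 3.55 with P4. No P4 library reached the lowest oil library. The log2 change was -1.14 (SE 0.17, limma adjusted p = 3.38e-05) in PRA and -1.41 (SE 0.17, adjusted p = 3.96e-06) in PRB. Without PRA oil replicates 1 and 3, where Slc1a3 and the adipose markers were higher, the change in PRA was -0.79, still called. Slc1a1 (EAAC1), which carries glutamate and cysteine, changed by -0.69 in PRA and -0.65 in PRB, and the PRA call was lost without PRA oil replicates 2 and 4 (-0.53, limma adjusted p = 0.0655). Its PRB P4 libraries had 23.3, 26.7, 45.5 and 23.8 FPKM, so that only replicate 3 lay within the oil range of 41.2 to 51.9.

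Of the 7 tested Slc38 carriers, Slc38a2 rose in both strains and Slc38a6, Slc38a7 and Slc38a9 fell in both. Slc38a2 (SNAT2), the sodium-coupled carrier that adapts to amino acid supply, had 50.6, 59.5, 51.9 and 62.4 FPKM in PRA with oil and 81.0, 93.3, 76.3 and 82.2 with P4. The PRB values were 56.4, 55.4, 54.9 and 57.1 FPKM with oil and 98.0, 87.8, 82.9 and 87.3 with P4. The groups did not overlap, and the log2 rise was 0.56 (SE 0.07, limma adjusted p = 8.23e-06) in PRA and 0.66 (SE 0.07, adjusted p = 1.68e-06) in PRB. Under quantile normalization the rise was smaller, 0.33 and 0.38, and still called. Slc38a1 (SNAT1), a close relative, had group means of 28.8, 29.5, 28.4 and 29.9 FPKM and log2 differences of 0.03 and 0.06 (SE 0.13), neither called. Slc38a10, abundant but with little known of its cargo, was not called. It had 71.9, 66.7, 67.9 and 69.3 FPKM in PRA with oil and 63.7, 57.6, 65.4 and 62.1 with P4, and 69.5, 66.4, 72.1 and 66.8 in PRB with oil and 58.6, 71.0, 73.4 and 72.3 with P4. Slc38a4 changed by -0.37 in PRA (limma adjusted p = 0.0403), a call that 9 of 27 alternative settings lost, among them those without PRA oil replicate 1 or 3 or PRA P4 replicate 1, 2 or 4.

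Slc38a9, the lysosomal arginine sensor of the mTORC1 pathway, had 7.58, 6.71, 7.26 and 5.96 FPKM in PRA with oil and 3.02, 2.72, 2.60 and 2.70 with P4. PRB libraries had 7.04, 7.93, 6.61 and 6.22 FPKM with oil and 3.30, 2.95, 3.29 and 3.26 with P4. All P4 libraries lay well below all oil libraries. The log2 change was -1.06 (SE 0.08, limma adjusted p = 2.15e-08) in PRA and -0.92 (SE 0.08, adjusted p = 9.49e-08) in PRB. Slc38a7, which exports glutamine from lysosomes, had 16.7, 17.2, 18.3 and 16 FPKM in PRA with oil and 11.5, 9.997, 10.4 and 10.02 with P4. Among PRB libraries it had 17.8, 19.6, 18 and 16.8 FPKM with oil and 12.1, 12.5, 12.8 and 11.9 with P4. Oil and P4 were again apart, by -0.65 (SE 0.06, limma adjusted p = 1.29e-07) in PRA and -0.51 (SE 0.06, adjusted p = 1.59e-06) in PRB. Slc38a6, a less studied member, had 15.1, 19.3, 9.32 and 12.9 FPKM in PRA with oil and 6.65, 5.53, 5.57 and 5.57 with P4. In PRB it had 16.9, 20.2, 16.9 and 16.8 FPKM with oil and 6.31, 6.37, 6.57 and 5.32 with P4. The fall was -1.11 (SE 0.15, limma adjusted p = 1.20e-05) in PRA and -1.39 (SE 0.15, adjusted p = 1.25e-06) in PRB on the log2 scale.

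In the proton-coupled Slc36 family and the Slc43 family, with 3 tested carriers each, no carrier was called higher with P4. Over all features 36.6% were called higher in PRA and 36.2% in PRB, and so few carriers do not show a trait of these families. Slc36a1 (PAT1), the lysosomal carrier whose promoter stretch is shown above, went from 13.9 ± 0.694 to 10.4 ± 1.11 FPKM in PRA and from 14.4 ± 0.565 to 11.8 ± 1.39 FPKM in PRB, log2 changes of -0.39 and -0.27. Slc43a1 (LAT3) and Slc43a2 (LAT4), which let large neutral amino acids leave or enter without sodium, changed by -0.57 and -0.72 in PRA and by -0.47 and -0.66 in PRB. Without PRA oil replicates 1 and 3, Slc43a1 changed by -0.34 in PRA and was still called. Slc36a4 had log2 differences of -0.22 and -0.18, neither called. Slc43a3, the purine base carrier, had -0.14 in PRA and 0.33 in PRB, neither called. In PRB its P4 libraries had 20.9 to 25.7 FPKM, above the 16.5 to 19.0 with oil. With P4 it was higher in PRB than PRA by 0.46 (limma adjusted p = 0.0514), not a call. Some alternatives called that difference, such as median-ratio scaling (0.48, limma adjusted p = 0.0471) and library weights (0.50, adjusted p = 0.0180).

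**Figure D4:**
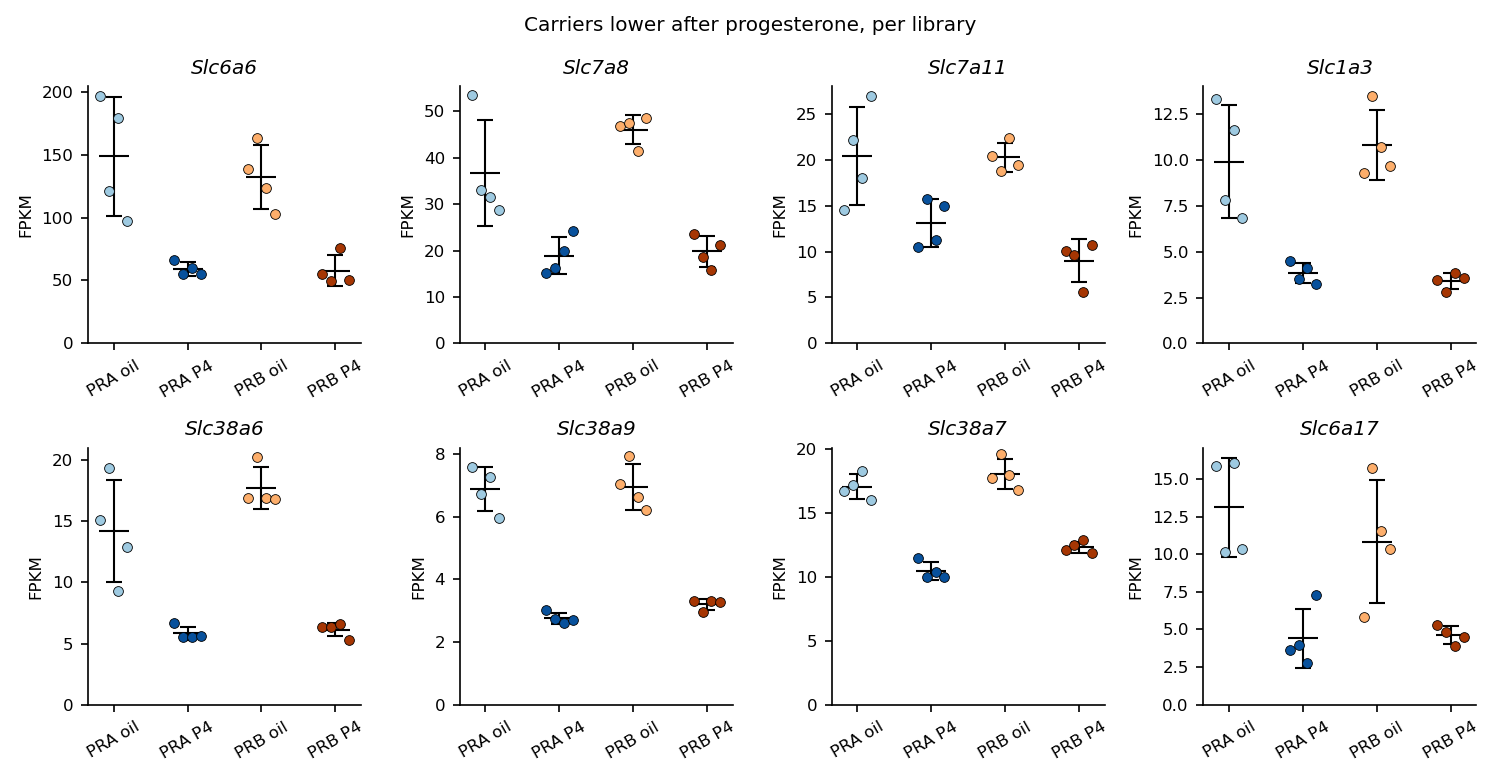
FPKM of 8 carriers that fell with P4 in each library, with group means and SD (n = 4). The P4 libraries of Slc38a9, Slc38a7, Slc1a3 and Slc7a8 lie below all oil libraries of their strain, whereas the PRA groups of Slc7a11 overlap.

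Other Slc6 carriers of amino acids split. Slc6a9 (GLYT1), the glycine carrier, rose by 0.98 (SE 0.21, limma adjusted p = 0.000918) in PRA and 0.58 (SE 0.21, adjusted p = 0.0256) in PRB. In PRB its P4 libraries had 21.6, 16.6, 9.63 and 22 FPKM, and replicate 3 lay among the oil libraries of 8.40 to 13.2. The PRB call was lost without PRB oil replicate 3 or 4 or PRB P4 replicate 1 or 4, at 0.46 to 0.54. Its exons share 1429 bases with Ccdc24 on the opposite strand, which had a mean of 5.51 FPKM. Slc6a17, a vesicular carrier of neutral amino acids known from neurons, had 15.8, 10.2, 16.1 and 10.3 FPKM in PRA with oil and 3.66, 3.98, 2.77 and 7.26 with P4. Its PRB libraries had 5.81, 15.7, 11.5 and 10.3 FPKM with oil and 5.32, 4.86, 3.89 and 4.51 with P4. Its P4 libraries were below its oil libraries in both strains, narrowly so in PRB, with log2 changes of -1.41 (SE 0.27, limma adjusted p = 0.000245) and -1.004 (SE 0.27, adjusted p = 0.00366). Without PRA oil replicates 1 and 3, where Slc6a17 and the adipose markers were higher, the change in PRA was -1.12, still called. Slc6a15, a carrier of branched-chain amino acids and proline, fell from 2.74 to 1.40 FPKM in PRA and from 3.47 to 2.06 FPKM in PRB. Both calls were lost under quantile normalization, at -0.42 and -0.37, and the PRA call also without PRA oil replicates 1 and 3 (-0.52, limma adjusted p = 0.069).

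Slc6a6 and Slc6a8 carry the small organic solutes taurine and creatine. Slc6a6, at chr6:91684053-91759066 on the plus strand, had 197, 121, 179 and 97.2 FPKM in PRA with oil and 66.3, 55.3, 59.8 and 54.9 with P4. The PRB values were 138, 163, 124 and 103 FPKM with oil and 54.9, 49.6, 75.8 and 50.5 with P4. It was among the most abundant carriers with oil and fell by 1.26 (SE 0.21, limma adjusted p = 6.63e-05) in PRA and by 1.18 (SE 0.21, adjusted p = 0.000125) in PRB on the log2 scale. Slc6a8 rose by 0.36 in PRA and 0.38 in PRB. Its P4 libraries had 52.2, 49.2, 49.8 and 50.3 FPKM in PRA and 59.4, 59.2, 40.7 and 60.6 in PRB, against 36.3 to 45.3 over all oil libraries. PRB P4 replicate 3 was again within the oil range. Both Slc6a8 calls were lost under quantile normalization, at 0.18 and 0.15.

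Several carriers varied among the PRA oil libraries together with the adipose markers, but other tissue markers split the same libraries. Summed gland markers were 5.17 and 4.94 FPKM in replicates 1 and 3 against 20.2 and 24.6 in replicates 2 and 4. Summed skeletal muscle markers were 61.1 and 61.5 FPKM in replicates 2 and 4 and lower in replicates 1 and 3. Slc7a10 (Asc-1), which carries small neutral amino acids and is also known as a surface protein of white fat cells, had 12.6, 2.84, 9.38 and 1.24 FPKM in PRA with oil, high in the same replicates 1 and 3. Its log2 differences of -0.74 and -0.18 (SE 0.52) were not called, and its exons share 237 bases with Lrp3 on the opposite strand, at a mean of 30.1 FPKM. Slc36a2 (PAT2), known from brown fat, had 16.5, 6.54, 13.6 and 4.58 FPKM in PRA with oil and 5.94, 2.90, 3.55 and 1.62 with P4. PRB libraries had 5.03, 6.16, 8.15 and 5.03 FPKM with oil and 2.28, 2.12, 1.90 and 3.12 with P4. Its groups overlapped in PRA and not in PRB, with changes of -1.27 (SE 0.34, limma adjusted p = 0.00384) and -1.07 (SE 0.34, adjusted p = 0.0112). Without PRA oil replicates 1 and 3, the change of Slc36a2 in PRA was -0.61 (adjusted p = 0.101), which is not a call, and without replicates 2 and 4 it was -1.92. Slc6a6 was also higher in those replicates, but its change in PRA without them, -0.87, was still called. The summed adipose markers were 59.6 to 198 FPKM in PRA with P4, 93.0 to 381 in PRB with oil and 66.2 to 219 in PRB with P4. In PRB with oil the highest adipose sum, 381 FPKM, was in replicate 3, where Slc7a10 and Slc36a2 were also highest, at 7.46 and 8.15 FPKM. Slc6a6, Slc1a3 and Slc6a17 were instead highest in replicate 2, at 163, 13.5 and 15.7 FPKM. That library had the lowest gland and skeletal muscle sums of its group, 8.38 and 12.4 FPKM. None of the 4 adipose markers was called in any comparison. The part of the adipose, gland and skeletal muscle markers in the carriers' values was not tested.

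Slc6a2, the noradrenaline carrier of sympathetic nerve endings, ran the other way in PRA with oil, at 8.62, 25.6, 8.26 and 24.5 FPKM. It had 22.6, 20.4, 31.3 and 33.9 FPKM in PRA with P4, 23.2, 17.6, 32.7 and 50.7 in PRB with oil and 12.5, 11.8, 31.2 and 15.6 in PRB with P4. The spread within groups was wide and every pair of groups overlapped. Its log2 differences of 0.81 in PRA and -0.77 in PRB (SE 0.41) were not called, nor was the difference between them, -1.58 (SE 0.58, limma adjusted p = 0.184).

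**Figure D5:**
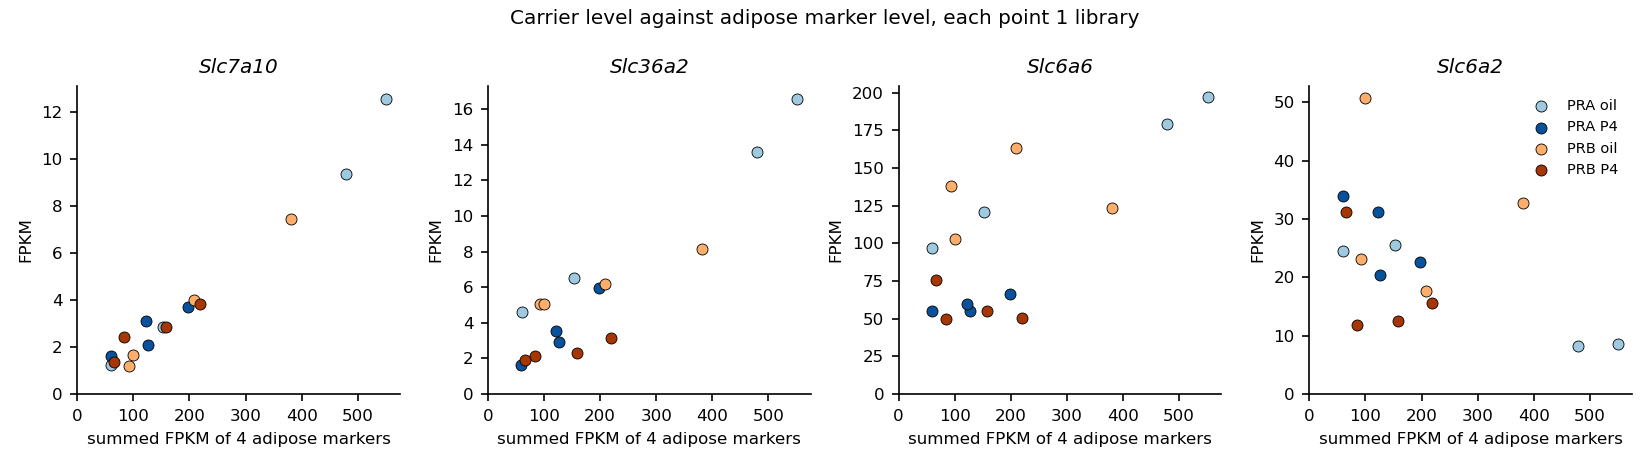
FPKM of Slc7a10, Slc36a2, Slc6a6 and Slc6a2 in each library against the summed FPKM of 4 adipose markers. PRA oil replicates 1 and 3, at 551 and 479 FPKM of adipose markers, hold the highest Slc7a10, Slc36a2 and Slc6a6 values and the lowest Slc6a2 values of that group.

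Between the strains, no carrier was called with oil, where 0.117% of features were called. At an unadjusted limma p under 0.05 there were 3 of 35, all higher in PRB. The share of all features at an unadjusted p was not counted. The unadjusted counts here and below therefore have no share beside them and cannot be set against the shares called. With P4, 4 carriers were higher in PRB than in PRA and none was lower, where 16% of features were called, 7.75% higher and 8.29% lower. At an unadjusted limma p under 0.05, 6 were higher and 1, Slc7a11, was lower. Endothelial markers also differed: their summed level was 142 to 175 FPKM in PRA with P4 and 197 to 206 in PRB with P4, against 216 to 274 and 233 to 257 with oil. None of these 6 markers was at 0 in every library. With P4, 3 were called higher in PRB than PRA, or 50% beside 7.75% of features. Against oil, 3 fell in PRA and 1 in PRB, or 50% and 16.7% beside 33.2% and 32.9%. The part of the endothelial markers in the carriers' differences was not tested. Besides Slc6a14, the carriers called higher in PRB with P4 were Slc7a7, Slc38a7 and Slc7a2. Their log2 differences were 0.41 (SE 0.11, limma adjusted p = 0.0227), 0.22 (SE 0.06, adjusted p = 0.0201) and 0.26 (adjusted p = 0.0499). Slc7a7 and Slc38a7 fell in both strains and ended higher in PRB. The calls of Slc7a7 and Slc38a7 between the strains were lost without PRA P4 replicate 2 or 4, and that of Slc7a7 also without replicate 3. The strains did not overlap with P4 for 3 tested carriers, Slc6a14, Slc7a7 and Slc38a7, against 20.2% of features. Slc7a2 had 5.94, 5.86, 5.53 and 7.55 FPKM in PRA with P4 and 8.44, 6.51, 8.11 and 7.51 in PRB with P4. Those groups overlapped. Its oil libraries did not, which held for no other tested carrier and for 3.39% of features, with 7.72 to 8.58 FPKM in PRA against 9.31 to 10.3 in PRB, with a log2 difference of 0.25 (limma adjusted p = 0.650). The Slc7a2 call with P4 was lost under 21 of 28 alternative settings. In the difference between responses Slc6a14 was called and none was lower in PRB, where an unadjusted limma p under 0.05 gave 3 carriers higher and 1, Slc6a2, lower.

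Genes related to the carriers were counted from 4 lists. Of 21 genes of the amino acid response, the targets and regulators of ATF4, 17 rose and none fell in each strain, or 81.0% higher beside 36.6% of all features in PRA and 36.2% in PRB, with median log2 changes of 1.11 in PRA and 0.98 in PRB. At an unadjusted limma p under 0.05 the counts were 17 and 19 higher, again with none lower. Asns, which makes asparagine, went from 7.46 to 53.7 FPKM in PRA and from 5.84 to 38.2 FPKM in PRB. Phgdh, the first enzyme of serine synthesis, rose by 2.49 and 2.27, and Sesn2, a leucine sensor that is also an ATF4 target, rose by 2.23 and 2.32. Chac1, which degrades glutathione, rose by 2.58 in PRA and 1.82 in PRB, and Cth, which makes cysteine, rose by 1.43 and 1.84. Atf4 itself, picked out after its values were seen, went from 99.7 to 279.7 FPKM in PRA and from 103 to 297 FPKM in PRB. Of the 8 carriers listed as amino acid response or progesterone-responsive genes, Slc6a14, Slc7a5, Slc7a1, Slc1a5, Slc1a4 and Slc38a2 rose in both strains. Slc3a2 rose in PRA without a call in PRB, and Slc7a11 fell in both. These 8 were listed with earlier results of these data known, and the share of all features rising in both strains was not counted. Whether the carriers changed through ATF4 was not tested.

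Lysosomal amino acid sensing genes, 25 of them tested, moved both ways, with 10 higher and 8 lower in PRA and 12 higher and 9 lower in PRB. These are 72.0% and 84.0% called, beside 69.8% and 69.1% of all features. Sesn3 and Gatsl2 fell and the mTOR subunit gene Mlst8 rose in both strains, by 1.06 and 0.94 for Mlst8. A list of enzymes of glutathione, glutamine, arginine, tryptophan and branched-chain amino acid metabolism, with steps of synthesis among them, had 13 tested genes. Of these, 10 rose and 1 fell in PRA and 9 rose and 2 fell in PRB. That is 76.9% and 69.2% higher beside 36.6% and 36.2% of all features. Odc1, which starts polyamine synthesis from ornithine, rose by 1.58 and 1.32. Bckdha, of the branched-chain keto acid dehydrogenase, fell from 51.3 to 17.7 FPKM in PRA and from 48.1 to 26.3 FPKM in PRB, and its responses differed by 0.65 (limma adjusted p = 0.0124). Of 13 tested amino acid carriers outside the 7 families, 5 rose and 3 fell in PRA and 8 rose and 4 fell in PRB, which is 61.5% and 92.3% called beside the same 69.8% and 69.1%. Slc25a29, a mitochondrial carrier of basic amino acids, rose by 1.82 and 2.25. Slc15a2, a peptide carrier, changed by -1.27 and -2.52, with responses not called different (-1.26, adjusted p = 0.207).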

How the data were processed

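The submitters' processing notes name TopHat2 2.0.4, Cufflinks 2.0.2 with Cuffdiff and the mm10 build, with no role or order. The authors deposited FPKM per gene symbol in 1 table of 31274 features. For the annotation, strand setting and scaling, nothing is stated in the labels or notes. From the deposited FPKM, log2(FPKM + 1) was fitted with limma 3.58.1 in R 4.3.3, with 1 mean for each of the 4 groups over all 16 libraries and an intensity trend, on 15408 features whose mean reached 1 FPKM. Tests were two-sided and adjusted by the Benjamini-Hochberg method over all features tested. FPKM are not counts, so no count model was used. Positions come from GENCODE M21 (GRCm38). The code was tested on simulated data.

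Values by library or group were to be given for up to 12 called carriers with the largest separated changes in each strain, all called between strains, 8 known amino acid response or progesterone-responsive carriers and the 6 most abundant, and others could be named with their role group. Slc7a10 and Slc6a2 were given by library after their values were seen. The members, lists and rules were chosen with earlier results of these data known. Other normalizations, filters, pseudocounts, fits and libraries left out were tried. The labels call the replicates biological but do not say that each was a separate animal. The p-values therefore measure only the spread between these samples, which may not be that between animals.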

Additional observations from a re-analysis of the deposited data

Results flagged for a closer look

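Of 140 groups of 4 libraries, all those of the 35 tested carriers, 8 had a library set apart by Dixon's criterion, and chance alone sets apart about 1 in 20, or 7 here. In PRB with P4, replicate 3 was low for Slc3a2, at 140 FPKM against 175 to 180, and for Slc6a8, at 40.7 FPKM against 59.2 to 60.6, and high for Slc1a1, at 45.5 FPKM against 23.3 to 26.7. In the same group replicate 1 was low for Slc38a10, at 58.6 FPKM against 71.0 to 73.4, and replicate 2 was low for Slc38a9, at 2.95 FPKM against 3.26 to 3.30. For Slc38a6, PRA P4 replicate 1 was high, at 6.65 FPKM against 5.53 to 5.57, and PRB oil replicate 2 was high, at 20.2 FPKM against 16.8 to 16.9. Slc43a1 was high in PRA P4 replicate 1, at 13.8 FPKM against 11.6 to 11.8. The response of Slc6a14 to P4 differed between the strains by 1.33 on the log2 scale, larger in PRB. PRB P4 replicate 3 also had summed leukocyte markers of 70.1 FPKM against 29.2 to 37.0 in the rest of its group, and the part of that in its carrier values was not tested.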

How the results depend on the processing

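Of 58 called single values, 41 kept their call under every one of up to 28 alternatives, 17 lost it under at least 1 and none reversed. Leaving out 1 library gave 10 to 12 carriers higher and 15 to 18 lower in PRA, and 8 to 11 higher and 15 to 17 lower in PRB. The other alternatives moved these counts further. They gave 9 to 11 higher and 13 to 23 lower in PRA, and 9 to 13 higher and 13 to 23 lower in PRB. The number higher in PRB than PRA with P4, 4, was 1 with the libraries of that contrast alone, 8 with library weights and 1 to 4 with 1 library left out, 1 without PRA P4 replicate 2 and 2 without PRA P4 replicate 4. The number lower, 0, was 2 with library weights and 0 to 1 with 1 library left out, where Slc7a5 was called without PRB P4 replicate 4. In the difference of responses, the number higher went from 1 to 0 without PRA oil replicates 1 and 3 and the number lower from 0 to 1 (Slc6a2) without replicates 2 and 4, alternatives chosen after seeing the data. Slc3a2 in PRB reversed to -0.11 under quantile normalization. The cause was not tested. Summed FPKM over all features was 499748 to 528785 in PRA with oil and 572846 to 594092 with P4. In PRB it was 507931 to 520113 with oil and 578463 to 595748 with P4. The upper quartile was 14.5 to 15.1 FPKM over all libraries. The part of these totals in the carriers' changes was not tested. Over all alternatives the adjusted p of the Slc6a14 difference was 0.00113 to 0.0602. With the replicate number as a block it was 1.33 (limma adjusted p = 0.0111), and the Slc7a2 difference with P4 lost its call. The numbers did not pair the libraries, since deviations of same-numbered libraries correlated at -0.23 to 0.31 and 4 of 16 libraries correlated best with their own number. Carriers with a mean under 1 FPKM were not tested because of the filter, and fewer fragments stand behind their values. Without that filter some of them were called. Among these, Slc1a7 was lower with P4 in PRA (-0.37) and PRB (-0.30), and Slc6a4 was higher in PRB (0.41).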
